A study of Caenorhabditis elegans with 12 samples.

Results

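The fbxa genes of Caenorhabditis elegans encode a large family of F-box proteins, and 222 genes carry an fbxa symbol. Members were taken to be the fbxa genes with a summed estimated count of 10 or more in at least 3 of the 12 libraries, a rule met by 147 of the 222 and by 15436 of the 22010 genes measured in all. Of these 147 members, 114 are annotated as protein coding and 33 as pseudogenes. The 145 members that also passed the count filter of the fit were tested, and the other two, fbxa-15 and fbxa-94, were not. RNA was taken from whole animals at the L4 stage in 4 groups of 3 libraries: heated affl-2(sy975), unheated affl-2(sy975), heated N2 and unheated N2. The affl-2(sy975) animals were strain PS8060 and N2 is the laboratory wild type. Per the labels, 250 L4 larvae were picked for each condition of each replicate onto plates seeded with OP50 bacteria, and the parafilm-covered plates were held for 30 min in a water bath at 33 °C (heated) or at 20 °C (unheated). Whether replicates were separate cultures is not in the labels, and p-values therefore reflect the spread between libraries, which may be technical. A single mutant strain was used, so the sy975 allele and any other difference between PS8060 and N2 cannot be told apart.

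F-box proteins are the exchangeable subunits of SCF ubiquitin ligases, in which a cullin scaffold carries a RING protein at one end and a Skp1-related adaptor at the other. The F-box motif holds the protein to the Skp1-related adaptor, and the rest of the protein holds the substrate that is to be ubiquitinated. Proteins of the FBXA family pair an F-box with an FTH domain, and most have no assigned substrate. The family is greatly expanded in C. elegans, where its genes lie in tandem clusters on the chromosome arms. FBXA-158 and FBXA-75 have been reported as partners of the cullin CUL-6 and the Skp1-related proteins SKR-3, SKR-4 and SKR-5 in a ligase that promotes thermotolerance in worms.

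Libraries held 17973117 to 22657735 estimated counts. The mRNA of affl-2 itself stood at 19.2, 16.3 and 17.3 CPM (counts relative to library size, scaled between libraries by TMM) in heated affl-2, compared with 25.2, 25.6 and 30 CPM in heated N2. Without heat shock it stood at 15.2, 15.4 and 19.6 CPM in affl-2, compared with 22.2, 25 and 21 CPM in N2. Each affl-2 library lay below each N2 library, and since the sy975 lesion is not given in the sources used here these values do not check the labels. Markers of muscle, neurons, intestine, germline, sperm, oocytes, epidermis and pharynx were detected for all 4 genes of each list and none was at 0. In whole animals, fewer cells of a type and less RNA per cell cannot be told apart.

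The fbxa mRNAs were low. The median transcript level of a member over the 12 libraries, in TPM (transcript abundance scaled for transcript length and library size), was 2.61 and ranged between 0.0733 and 34.1, against a median of 14.6 for all tested genes. Only 12 members exceeded 10 TPM and 40 stayed below 1 TPM. The members with the highest levels were fbxa-55 (34.1 TPM), fbxa-72 (32.2 TPM), fbxa-215 (30.8 TPM), fbxa-60 (27.8 TPM) and fbxa-101 (23.9 TPM), followed by fbxa-210, fbxa-156, fbxa-74, fbxa-59 and fbxa-114 at 20.2 to 13.3 TPM. In all 12 libraries 95 members had 10 counts or more. Counts of 10 or more were confined to affl-2 libraries for 6 members and to N2 libraries for 0, to heated libraries for 5 and to unheated libraries for 7. A member let in by one side alone could hardly fail to be higher there, so counts of calls are also given without such members, a restriction chosen after seeing the data. The rule left 5 genes just inside it with 3 libraries of 10 counts (fbxa-15, fbxa-52, fbxa-144, fbxa-163 and fbxa-176) and 5 just outside with 2 (fbxa-9, fbxa-20, fbxa-49, fbxa-71 and fbxa-88). The summed level of all 147 members was 639 to 678 CPM in heated affl-2 and 629 to 746 CPM in unheated affl-2, against 553 to 581 CPM in heated N2 and 588 to 631 CPM in unheated N2. The heated affl-2 libraries all lay above the heated N2 libraries, and the unheated groups overlapped.

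Near-identical copies limit what can be said of some members. The estimated counts of 109 members were whole numbers (within 0.01) in at least 10 libraries, as they are where no read was divided between genes, and those of the other 38 were not. The read-sharing members include fbxa-180, fbxa-48, fbxa-91, fbxa-55, fbxa-59, fbxa-60, fbxa-67, fbxa-101, fbxa-157, fbxa-182, fbxa-183, fbxa-189, fbxa-30 and fbxa-35, so the split of their reads from their relatives is uncertain. A further limit is that 21 members overlap another annotated gene, among them fbxa-48 with fbxa-9 and fbxa-179 with frpr-17 on the opposite strand, and the library kit named in the labels keeps no strand.

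Heat shock in affl-2 changed 47 of the 145 tested members, 20 upwards and 27 downwards (edgeR quasi-likelihood test, Benjamini-Hochberg adjusted p below 0.05 over 15386 genes). These are 13.8% and 18.6% of the members, against 10.6% and 10.8% of all genes tested, of which 21.4% passed in either direction. The median log2 change was -0.10 over members and 0.03 over all genes. Heat shock in N2 changed 44 members, 15 upwards and 29 downwards, which is 10.3% and 20.0% of the members, against 9.52% and 12% of all genes and 21.5% in either direction. The median log2 change in N2 was -0.17 over members and -0.01 over all genes. The falling members were thus the larger class in both genotypes, while among all genes tested rises and falls were closer in number. Over the 133 members with 10 counts in at least 1 heated and at least 1 unheated library, 16 rose and 23 fell in affl-2 (12% and 17.3%, against 9.98% and 10.7% of the 15104 genes restricted likewise), and 12 rose and 26 fell in N2 (9.02% and 19.55%, against 8.74% and 12.1%). Without 1 library the rises were as few as 13 in affl-2 (without heated affl-2 replicate 2) and 9 in N2 (without heated N2 replicate 3), and falls outnumbered rises in each fit that left out 1 library. With scaling by library size alone, the all-gene median moved by -0.14 in affl-2 and -0.18 in N2, and the split became 15 upwards and 33 downwards in affl-2 and 10 upwards and 43 downwards in N2, while 17.1% and 22.7% of all genes fell in affl-2 and in N2. Relative to the all-gene median the members' median was -0.13 in affl-2 and -0.17 in N2 under either scaling.

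**Figure D1:**
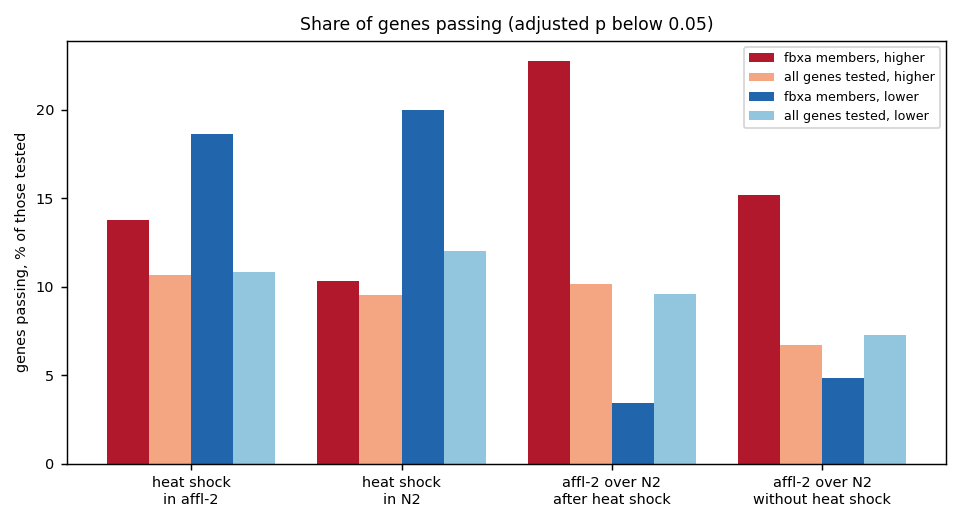
Bars give the percentage of genes that passed (adjusted p below 0.05) as higher or lower in each of 4 comparisons, for the 145 tested fbxa members and for all 15386 genes tested. The members' bars stand above those of all genes for falls with heat shock (18.6% and 20.0%) and for higher levels in affl-2 (22.8% and 15.2%), and below them for lower levels in affl-2 (3.45% and 4.83%).

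fbxa-180 (F31E9.1, chromosome V, 17319596 to 17322444), annotated as a pseudogene, was among the members that were lower after heat shock. Its level was 1.60, 1.30 and 1.75 CPM in heated affl-2, against 8.92, 11.6 and 7.03 CPM in unheated affl-2. In N2 it was 0.561, 1.25 and 1.08 CPM after heat shock, against 7.56, 5.97 and 7.33 CPM without. Heated and unheated libraries did not overlap in either genotype, and the log2 changes were -2.56 ± 0.25 in affl-2 and -2.85 ± 0.27 in N2 (SE). This gene was singled out for its repression before the present fit, so its change is given as a description, with no test.

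Other members fell in both genotypes. fbxa-91 (Y119D3B.18, chromosome III, annotated as a pseudogene) stood at 1.38, 0.579 and 1.02 CPM in heated affl-2, against 4.66, 6.49 and 4.35 CPM in unheated affl-2, a log2 change of -2.37 ± 0.28 (adjusted p = 3.98e-05). In N2 fbxa-91 stood at 1.12, 0.777 and 0.796 CPM after heat shock, against 3.58, 3.85 and 4.63 CPM without (-2.15 ± 0.29, adjusted p = 9.89e-05). Both of its heated groups lay below both unheated groups.

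fbxa-72 (F31F4.15, chromosome V, 674886 to 676753) showed the same direction at a high level, with all of its counts whole. It was at 26.5, 17.9 and 28.0 CPM in heated affl-2, against 45.0, 48.9 and 50.3 CPM in unheated affl-2 (log2 change -0.99 ± 0.16, adjusted p = 0.000450). In N2 it was at 20.0, 25.2 and 27.4 CPM after heat shock, against 39.4, 45.8 and 42.1 CPM without (-0.81 ± 0.16, adjusted p = 0.00187). Among the rarer mRNAs, fbxa-190 on the X chromosome fell by 2.06 in affl-2 and by 1.90 in N2 on the log2 scale. fbxa-82, fbxa-21, fbxa-14, fbxa-209, fbxa-63, fbxa-76, fbxa-167, fbxa-216 and fbxa-189 also passed as lower in each genotype, with log2 changes between -0.73 (fbxa-167 in affl-2) and -1.77 (fbxa-82 in affl-2). All of these members stayed past the threshold in both genotypes without any of the 12 libraries and under each other setting tried, apart from the test against a 2-fold change. fbxa-187 met the count rule through unheated libraries alone, and its log2 changes of -2.50 in affl-2 and -2.66 in N2 are given with no test.

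The members that rose were fewer. The steepest rises in N2 were fitted for fbxa-47, fbxa-48 and fbxa-66, which lie within 2229992 to 2314035 on chromosome III. In affl-2 the rise of fbxa-52 on the X chromosome (log2 change 3.36) came second to that of fbxa-47, ahead of fbxa-66 and fbxa-48. The affl-2 rise of fbxa-52 rests on sums of 35 and 3 counts, an 11.45-fold ratio (exact 95% interval 3.61 to 58.2 for counting error only). All of these members met the count rule through heated libraries alone, so their heat shock changes are a description, with no test. fbxa-47 (C39B5.9) was at 1.78, 1.45 and 1.55 CPM in heated affl-2, against 0, 0.0474 and 0.0956 CPM in unheated affl-2. These are sums of 102 and 3 counts, a 33.4-fold ratio with an exact 95% interval of 11.1 to 164.5 that covers counting error only. In N2 fbxa-47 was at 0.336, 0.956 and 0.796 CPM after heat shock, against 0, 0.0940 and 0.0492 CPM without, which are sums of 36 and 3 counts, a 14.7-fold ratio (4.65 to 74.7). fbxa-66 (Y54F10BM.11) was at 0.711, 0.627 and 1.07 CPM in heated affl-2, against 0.194, 0.0947 and 0.0956 CPM in unheated affl-2 (log2 change 2.59 ± 0.46). In N2 it was at 0.841, 1.49 and 1.36 CPM after heat shock, against 0.134, 0.235 and 0.0984 CPM without (2.93 ± 0.42). Heated and unheated libraries of fbxa-47 and fbxa-66 did not overlap in either genotype.

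At higher levels, fbxa-125 (B0511.3, chromosome I, 10646478 to 10647841) was at 11.4, 12.5 and 9.79 CPM in heated affl-2, against 4.32, 5.64 and 4.69 CPM in unheated affl-2, a log2 change of 1.20 ± 0.15 (adjusted p = 6.53e-05). In N2 it was at 9.36, 8.60 and 8.47 CPM after heat shock, against 4.70, 5.22 and 5.17 CPM without (0.81 ± 0.15, adjusted p = 0.00127). fbxa-183 (1.30 ± 0.20 in affl-2) and fbxa-59 (1.06 ± 0.18 in affl-2) rose as well, and their smaller changes in N2, 0.65 ± 0.20 and 0.59 ± 0.18, passed with adjusted p = 0.0310 and 0.0296. In N2 these calls for fbxa-183 and fbxa-59 were lost with scaling by library size alone (adjusted p = 0.0980 and 0.105), and without heated replicate 2 or 3 or unheated replicate 2 or 3, and for fbxa-59 also without unheated replicate 1 (adjusted p up to 0.110 for each).

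Across the pair of heat shock comparisons, which share no library, 10 members rose in both (50.0% of the 20 in affl-2 and 66.7% of the 15 in N2) and 19 fell in both (70.4% of the 27 in affl-2 and 65.5% of the 29 in N2). No member passed in opposite directions. The shares of all genes that passed in both heat shock comparisons are not given here, so this overlap is not read as a trait of the family. Of the 10, fbxa-47, fbxa-48 and fbxa-66 were let in by heated libraries alone, which leaves 7. Of the 19, fbxa-179 and fbxa-187 were let in by unheated libraries alone and fbxa-180 was chosen for its fall, which leaves 16. Calls that stayed past the threshold without each library in turn and under the other settings numbered 10 of 20 rises and 18 of 27 falls in affl-2, and 6 of 15 rises and 20 of 29 falls in N2, leaving aside the test against a 2-fold change. Over the members with 10 counts on both sides these were 7 of 16 and 15 of 23 in affl-2, and 4 of 12 and 19 of 26 in N2. Marker genes moved with heat as well. The 4 muscle markers summed to 8578 to 12650 CPM in heated affl-2, against 5516 to 5813 CPM in unheated affl-2, and in N2 to 11930 to 13750 CPM after heat shock, against 5277 to 8019 CPM without. The 4 intestine markers summed to 553 to 744 CPM in heated affl-2, against 755 to 868 CPM in unheated affl-2, and in N2 to 609 to 651 CPM after heat shock, against 723 to 845 CPM without. The 4 pharynx markers summed to 522 to 601 CPM in heated affl-2, against 387 to 406 CPM in unheated affl-2, and in N2 to 708 to 785 CPM after heat shock, against 404 to 618 CPM without. The oocyte markers summed to 621 to 831 CPM in heated affl-2, against 971 to 1802 CPM in unheated affl-2. Of single markers, all 4 of muscle and pha-4 and myo-2 of the pharynx rose in both genotypes, and elt-2 and pept-1 of the intestine and rab-3 and snt-1 of neurons fell in both. Other genes of these lists went the other way without passing. Of the 4 neuron genes 2 had a positive log2 change in affl-2 (up to 0.315) and 1 in N2 (0.189). The lowest pharynx change was -0.722 in affl-2 and -0.123 in N2. The summed neuron markers of heated and unheated libraries overlapped in both genotypes. Markers of epidermis (lin-26 in both genotypes, elt-3 in affl-2, nhr-25 in N2) and of oocytes (rme-2 in affl-2) fell, and markers of sperm (fer-1 in both genotypes, spe-9 in affl-2) rose. Of the 4 epidermis genes 1 had a positive log2 change in each genotype, 1.93 in affl-2 and 0.32 in N2, which did not pass. None of these markers was at 0, and their part in the changes of the members was not tested.

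**Figure D2:**
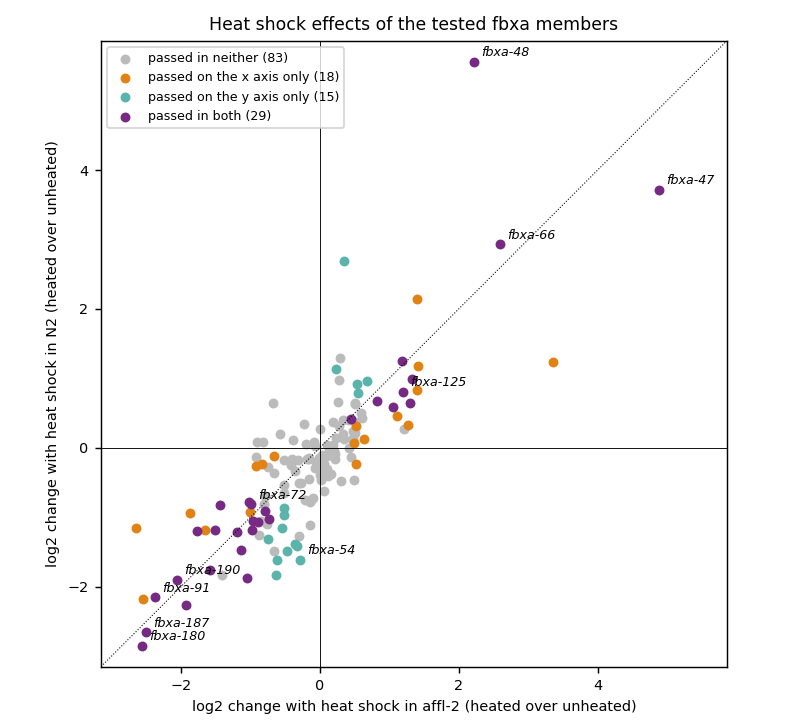
Each point is 1 of the 145 tested fbxa members, with its log2 change with heat shock in affl-2 on the x axis and in N2 on the y axis, coloured by the comparisons in which it passed. The 29 members that passed in both lie in the lower left (19 falls) and upper right (10 rises), with fbxa-48 far above the dotted line of equal change, and the position of fbxa-47 rests on 3 counts in each unheated group. fbxa-47, fbxa-48 and fbxa-66 are members through heated libraries alone.

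For the interaction, the heat shock change in affl-2 minus that in N2, 0 of the 145 members passed by edgeR's quasi-likelihood test, and 13 members had an unadjusted p below 0.05. Of all genes 0.715% passed, 0.0455% with a positive and 0.669% with a negative difference. DESeq2 called 1 member, and a fit with the replicate number as a block, in which unheated affl-2 replicates 1 and 2 were exchanged as the index in their labels has it, called 1. The member called by DESeq2 was fbxa-48 (Y54F10BM.7, chromosome III, 2266980 to 2272175). It was at 1.33, 0.965 and 1.12 CPM in heated affl-2, against 0.291, 0.426 and 0 CPM in unheated affl-2, and in N2 at 3.81, 5.20 and 5.18 CPM after heat shock, against 0, 0.141 and 0.148 CPM without. Its log2 changes with heat shock were 2.22 ± 0.55 in affl-2 and 5.56 ± 0.57 in N2, given with no test as for fbxa-47. The heated affl-2 libraries lay below the heated N2 libraries with no overlap (-2.05 ± 0.39, adjusted p = 0.00271). The difference between the heat shock changes was -3.34 ± 0.95. It was not called by edgeR over all 12 libraries. DESeq2 called it, as did the fit without unheated affl-2 replicate 3, in which fbxa-48 had no count. Since fbxa-48 was let in by heated libraries alone, this difference too is a description, with no test. Over the 129 members with 10 counts on both sides, 0 passed for the interaction.

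The member called with the replicate block was fbxa-54 (T12B5.2, chromosome III, 956334 to 957901). It was at 5.33, 3.33 and 6.06 CPM in heated affl-2, against 4.36, 7.72 and 5.88 CPM in unheated affl-2, and the heated and unheated ranges overlapped. In N2 it was at 1.46, 1.20 and 1.19 CPM after heat shock, against 3.89, 3.01 and 4.92 CPM without, with no overlap (log2 change -1.61 ± 0.30, adjusted p = 0.00140). The interaction was 1.33 ± 0.39 with adjusted p = 0.244 without the block and 1.31 with adjusted p = 0.0299 with it. The other members with low unadjusted p, led by fbxa-155 at 0.76 ± 0.19 (adjusted p = 0.113), were not called in any fit reported here.

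affl-2 animals had higher fbxa levels than N2 after heat shock for 33 of the 145 members and lower levels for 5. These are 22.8% and 3.45% of the members, against 10.1% and 9.57% of all genes, of which 19.7% passed in either direction. Without heat shock 22 members were higher in affl-2 and 7 lower, or 15.2% and 4.83% of the members, against 6.69% and 7.29% of all genes and 14% in either direction. Over the 139 members with 10 counts in at least 1 affl-2 and at least 1 N2 library, 31 were higher and 5 lower after heat shock (22.3% and 3.60%, against 10% and 9.38% of the 15206 genes restricted likewise), and 18 were higher and 7 lower without (12.95% and 5.04%, against 6.5% and 7.18%). The median log2 difference over members was 0.40 after heat shock and 0.28 without, while that over all genes was 0.04 and 0.00. With scaling by library size alone, the all-gene median moved by 0.22 after heat shock and 0.18 without, and the calls became 60 higher and 3 lower after heat shock and 36 higher and 4 lower without, while of all genes 31.6% were higher and 5.4% lower after heat shock and 17.8% higher and 4.22% lower without. Relative to the all-gene median the members' median was 0.37 after heat shock and 0.28 without in both scalings. The number of calls leaned on single libraries: after heat shock it was 20 without affl-2 replicate 1, 25 without affl-2 replicate 3, 25 without N2 replicate 1 and 23 without N2 replicate 2, in place of 38, and without heat shock it was 16 without affl-2 replicate 2 and 18 without N2 replicate 1, in place of 29. Higher calls outnumbered lower ones in each of these fits, by 17 to 3, 21 to 4, 22 to 3 and 19 to 4 after heat shock and by 13 to 3 and 15 to 3 without.

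Across the pair of genotype comparisons, which share no library, 16 members were higher in affl-2 in both (48.5% of the 33 and 72.7% of the 22) and 3 were lower in both, with none in opposite directions. The 16 were fbxa-30, fbxa-36, fbxa-62, fbxa-67, fbxa-98, fbxa-136, fbxa-150, fbxa-157, fbxa-158, fbxa-162, fbxa-182, fbxa-188, fbxa-189, fbxa-191, fbxa-192 and fbxa-193. Of these, fbxa-136 and fbxa-158 were let in by affl-2 libraries alone and fbxa-193 was chosen for this difference, which leaves 13. The 3 lower in both were fbxa-42, fbxa-101 and fbxa-197. The shares of all genes that passed in both genotype comparisons are not given here, so this overlap is not read as a trait of the family. Germline markers moved with genotype in these libraries: their summed level was 999 to 1421 CPM in heated affl-2, against 1511 to 1778 CPM in heated N2, and 1010 to 1317 CPM in unheated affl-2, against 1503 to 1616 CPM in unheated N2, and of the 4 genes pgl-1 and glh-1 passed as lower in affl-2 at each temperature. After heat shock other lists lay apart as well. Pharynx markers summed to 522 to 601 CPM in affl-2, against 708 to 785 CPM in N2, epidermis markers to 71.7 to 88.96 CPM in affl-2, against 104 to 137 CPM in N2, and sperm markers to 188 to 241 CPM in affl-2, against 182 to 184 CPM in N2. After heat shock myo-2 (pharynx) and lin-26 (epidermis) passed as lower in affl-2, and spe-11 (sperm) and pept-1 (intestine) as higher. The pharynx and epidermis lists were mixed. Of the 4 genes of each, 2 of pharynx (log2 up to 0.154) and 2 of epidermis (up to 0.44) were higher in heated affl-2 without passing. None of these markers was at 0, and their part in the differences of the members was not tested.

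**Figure D3:**
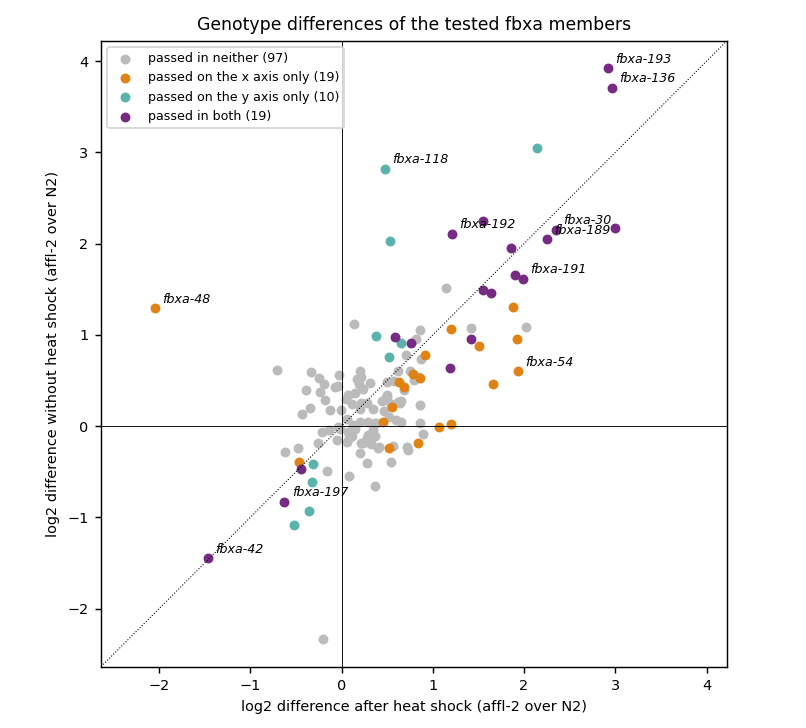
Each point is 1 of the 145 tested fbxa members, with its log2 difference of affl-2 over N2 after heat shock on the x axis and without heat shock on the y axis, coloured by the comparisons in which it passed. Most coloured points lie in the upper right, where 16 members passed in both comparisons, and fbxa-42, fbxa-101 and fbxa-197 passed in both on the lower left.

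The largest fitted genotype difference without heat shock was that of fbxa-193 (F59A1.9, chromosome V, 17653482 to 17655281), annotated as a pseudogene, with whole counts in all 12 libraries. It was at 8.49, 12.7 and 5.96 CPM in heated affl-2, against 0.953, 1.25 and 1.36 CPM in heated N2. Without heat shock it was at 8.54, 8.19 and 5.50 CPM in affl-2, against 0.671, 0.564 and 0.197 CPM in N2. The affl-2 libraries lay above the N2 libraries with no overlap, by log2 2.92 ± 0.34 after heat shock and 3.92 ± 0.37 without. This gene too was singled out for its genotype difference before the present fit, so the difference is a description, with no test. Its heat shock change in N2, 1.29 on the log2 scale, had adjusted p = 0.0537 by edgeR, 0.0120 by DESeq2 and 0.00998 with the replicate block in the exchanged pairing, and that in affl-2 was 0.29 (adjusted p = 0.491).

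Neighbours of fbxa-193 on one side showed the same direction. On the other side fbxa-129 passed in neither genotype comparison. Beyond it, fbxa-108 was higher in affl-2 after heat shock alone (log2 difference 0.63, adjusted p = 0.0317), a call lost without any 1 of 5 libraries. fbxa-192 (F57G4.8) was at 5.82, 7.29 and 5.77 CPM in heated affl-2, against 2.3, 2.93 and 2.96 CPM in heated N2 (log2 difference 1.20 ± 0.20, adjusted p = 0.000911). Without heat shock fbxa-192 was at 6.35, 5.21 and 4.49 CPM in affl-2, against 1.03, 1.46 and 1.23 CPM in N2 (2.11 ± 0.21, adjusted p = 4.34e-05). No affl-2 library of fbxa-192 overlapped an N2 library at the same temperature. fbxa-192 rose with heat shock in N2 (1.14 ± 0.22, adjusted p = 0.00209), its change in affl-2 was 0.23 (adjusted p = 0.396), and the interaction did not pass (-0.90 ± 0.29, adjusted p = 0.327). The pseudogene fbxa-191 (F57G4.4) was at 2.04, 2.85 and 2.04 CPM in heated affl-2, against 0.617, 0.597 and 0.512 CPM in heated N2 (1.99 ± 0.27, adjusted p = 0.000206). Without heat shock fbxa-191 was at 1.99, 2.13 and 1.82 CPM in affl-2, against 0.447, 0.799 and 0.689 CPM in N2 (1.61 ± 0.26, adjusted p = 0.00112). The groups of fbxa-191 did not overlap either.

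fbxa-189 (F47H4.9, chromosome V, 17345214 to 17347781) differed both by genotype and by heat. It was at 4.44, 3.81 and 5.19 CPM in heated affl-2, against 1.06, 0.418 and 1.31 CPM in heated N2 (log2 difference 2.25 ± 0.28, adjusted p = 0.000114). Without heat shock it was at 9.41, 9.57 and 7.41 CPM in affl-2, against 2.24, 1.88 and 2.26 CPM in N2 (2.04 ± 0.24, adjusted p = 0.000147). It fell with heat shock in affl-2 (-0.97 ± 0.23, adjusted p = 0.00745) and in N2 (-1.18 ± 0.30, adjusted p = 0.0114), so that the heated affl-2 level still lay above the unheated N2 level in each library. Its neighbour fbxa-188 differed by 1.64 ± 0.34 after heat shock and 1.46 ± 0.32 without (adjusted p = 0.00423 and 0.00897).

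Outside chromosome V, fbxa-30 (ZC47.4, chromosome III, 1274425 to 1275613) was at 1.38, 1.01 and 1.21 CPM in heated affl-2, against 0.112, 0.358 and 0.227 CPM in heated N2 (log2 difference 2.35 ± 0.43, adjusted p = 0.00200), and it differed by 2.15 ± 0.38 without heat shock (adjusted p = 0.00203). Only 1 N2 library of fbxa-30 reached 10 counts. fbxa-60, the most abundant of the members that were higher in affl-2, was at 38.3, 26.6 and 42.8 CPM in heated affl-2, against 19.7, 20.3 and 22.6 CPM in heated N2 (0.79 ± 0.19, adjusted p = 0.0101). Without heat shock fbxa-60 was at 33.9, 46.4 and 32.8 CPM in affl-2, against 25.6, 20.8 and 29.7 CPM in N2, a log2 difference of 0.57 that had adjusted p = 0.0523 by edgeR, 0.0203 by DESeq2 and 0.00935 with the replicate block. fbxa-54, described above, was also higher in heated affl-2 than in heated N2, by 1.93 ± 0.30 (adjusted p = 0.000580).

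fbxa-42 (Y54F10BL.1, chromosome III, 2259906 to 2261453) went the other way. It was at 3.20, 3.04 and 3.35 CPM in heated affl-2, against 9.03, 7.35 and 10.1 CPM in heated N2 (log2 difference -1.46 ± 0.19, adjusted p = 0.000154). Without heat shock it was at 3.59, 3.88 and 3.25 CPM in affl-2, against 10.4, 7.28 and 11.6 CPM in N2 (-1.45 ± 0.19, adjusted p = 0.000278). The affl-2 and N2 ranges were apart at each temperature, and fbxa-42 lies between fbxa-47 and fbxa-48 on the chromosome. fbxa-197 on chromosome V was lower in affl-2 by 0.63 ± 0.14 after heat shock and by 0.83 ± 0.14 without (log2, adjusted p = 0.00700 and 0.00176). Without each library in turn and under the other settings apart from the test against a 2-fold change, 15 of the 33 higher and 3 of the 5 lower calls held after heat shock (14 of 31 and 3 of 5 over members with 10 counts on both sides), and 10 of the 22 and 3 of the 7 without (10 of 18 and 3 of 7), including those given here for fbxa-189, fbxa-191, fbxa-192, fbxa-188, fbxa-30, fbxa-42 and fbxa-197.

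**Figure D4:**
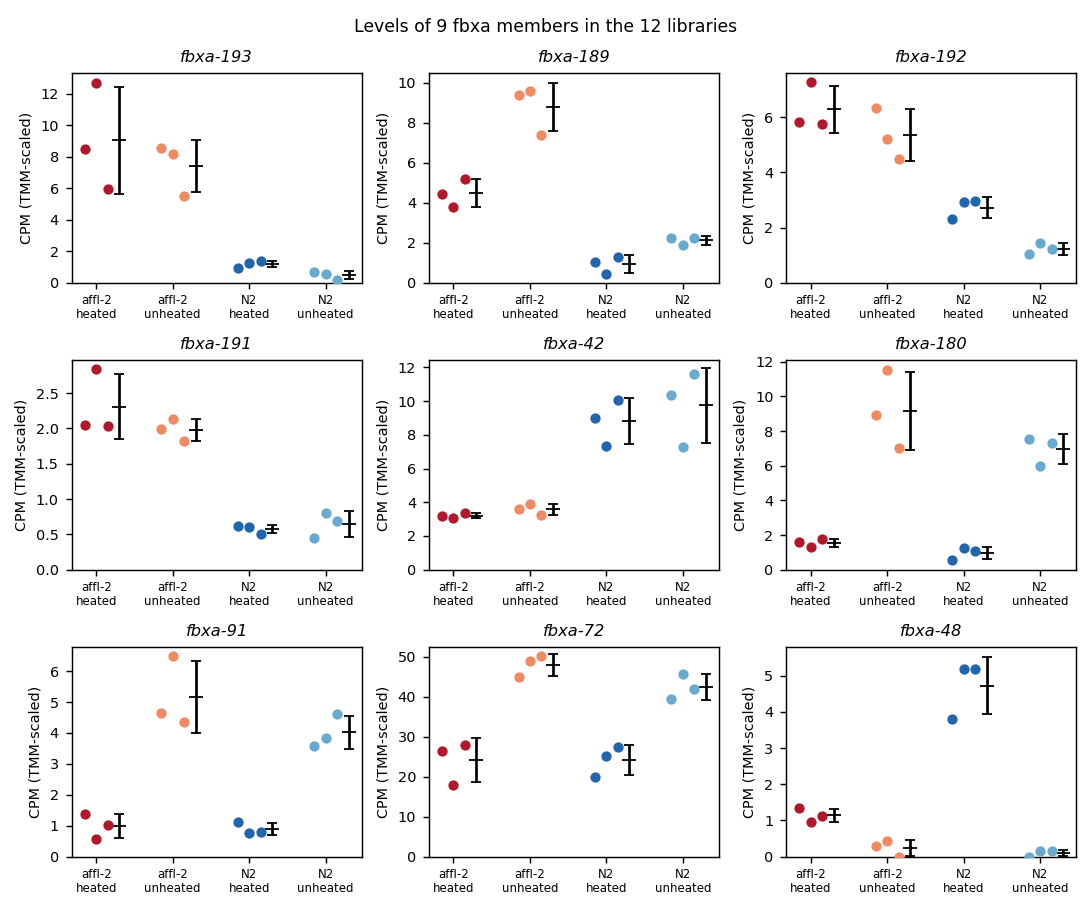
Each point is the level of a member in 1 library, in TMM-scaled CPM (linear axes starting at 0), with the mean and SD of the 3 libraries of each group beside the points. fbxa-193, fbxa-189, fbxa-192 and fbxa-191 are higher in both affl-2 groups and fbxa-42 lower, fbxa-180, fbxa-91 and fbxa-72 are lower in both heated groups, and fbxa-48 is highest in heated N2.

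Of the reported CUL-6 partners, fbxa-75 had a single count in all 12 libraries and is not a member. fbxa-158 (C08E3.10, chromosome II, 1619814 to 1621280) was at 0.578, 0.241 and 0.679 CPM in heated affl-2, against 0, 0.0598 and 0.114 CPM in heated N2. These are 32 and 3 counts, an 8.71-fold ratio with an exact 95% interval of 2.73 to 44.5 for counting error only. Without heat shock it was at 0.534, 1.28 and 0.574 CPM in affl-2, against 0, 0.235 and 0.295 CPM in N2 (log2 difference 2.17 ± 0.66). The affl-2 and N2 libraries did not overlap at either temperature. fbxa-158 met the count rule through affl-2 libraries alone, so these differences are a description, with no test.

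Members lay mostly on chromosome V (58) and chromosome III (52), with 14 on chromosome II, 12 on I, 9 on X and 2 on IV. Grouping fbxa genes with gaps of at most 20 kb gave 13 clusters of 4 or more family genes, which held 126 family genes and 79 members. The largest, between fbxa-21 and fbxa-25 on chromosome III (1236015 to 1349450), held 33 family genes and 26 tested members. In that cluster 3 members rose and 7 fell with heat shock in affl-2, 1 rose and 9 fell in N2, and 6 were higher in affl-2 after heat shock and 3 without, with 0 lower at either temperature. The median log2 change of its members was -0.51 with heat shock in affl-2 and -0.70 in N2. Of all genes, 10.6% rose and 10.8% fell in affl-2, and 9.52% rose and 12% fell in N2. Higher levels in affl-2 were called for 10.1% of all genes after heat shock and 6.69% without. Neighbouring members moved alike at one end of the array, in a run picked after the values had been seen. There fbxa-21, fbxa-61, fbxa-63, fbxa-76, fbxa-77 and fbxa-91, the 6 genes between 1236015 and 1254401, all fell in N2. All except fbxa-61 (-0.52, adjusted p = 0.118) fell in affl-2. The N2 call of fbxa-61 was lost without heated or unheated N2 replicate 3 (adjusted p up to 0.0944), and the affl-2 call of fbxa-77 without heated or unheated affl-2 replicate 2 (adjusted p up to 0.0619). Further along, fbxa-50, at 1287299 to 1288523, rose in affl-2 (1.33 ± 0.28, adjusted p = 0.00413) and in N2 (0.99 ± 0.27, adjusted p = 0.0173, lost without heated replicate 3 or unheated replicate 1, adjusted p up to 0.0790). Members of 1 tandem array were thus called in opposite directions with heat, though the rises were few (3 in affl-2 and 1 in N2).

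On chromosome V, 14 tested members lie between fbxa-180 and fbxa-157 (17319596 to 17901906), a stretch drawn after the values had been seen. In it 8 of 14 members were higher in affl-2 after heat shock and 8 without, with 0 lower at either temperature. Other genes of the stretch were higher in affl-2 in 10 of 32 cases after heat shock, with 3 lower, and in 14 of 32 cases without, with 0 lower. The direction was therefore shared by genes outside the family. In bins of 0.5 Mb laid along all chromosomes without regard to the family, the other genes of the bin 17000001 to 17500000 had the highest share of genes higher in affl-2 among 200 bins with 20 or more such genes, at 35.0% after heat shock and 40.0% without, against medians of 9.43% and 6.25% over bins. That first bin held only 20 such genes, the fewest allowed, so its shares rest on 7 and 8 genes. The next bin, 17500001 to 18000000, with 33 such genes, ranked 7 after heat shock (24.2%) and 2 without (33.3%). The longer stretch on chromosome III between fbxa-55 and fbxa-66 (933422 to 2314035) differed from this, with 11 of 45 members higher and 2 lower in affl-2 after heat shock, against 12 of 127 other genes higher and 10 lower. Without heat shock 6 of 45 members were higher and 1 lower, against 6 of 127 other genes higher and 6 lower. Inside the cluster between fbxa-21 and fbxa-25, 3 other genes were tested. Their median log2 difference was 0.78 after heat shock and 0.875 without, against 0.60 and 0.30 for its members, and 0 and 1 of them passed as higher. affl-2 itself lies on chromosome III at 434891 to 440142.

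**Figure D5:**
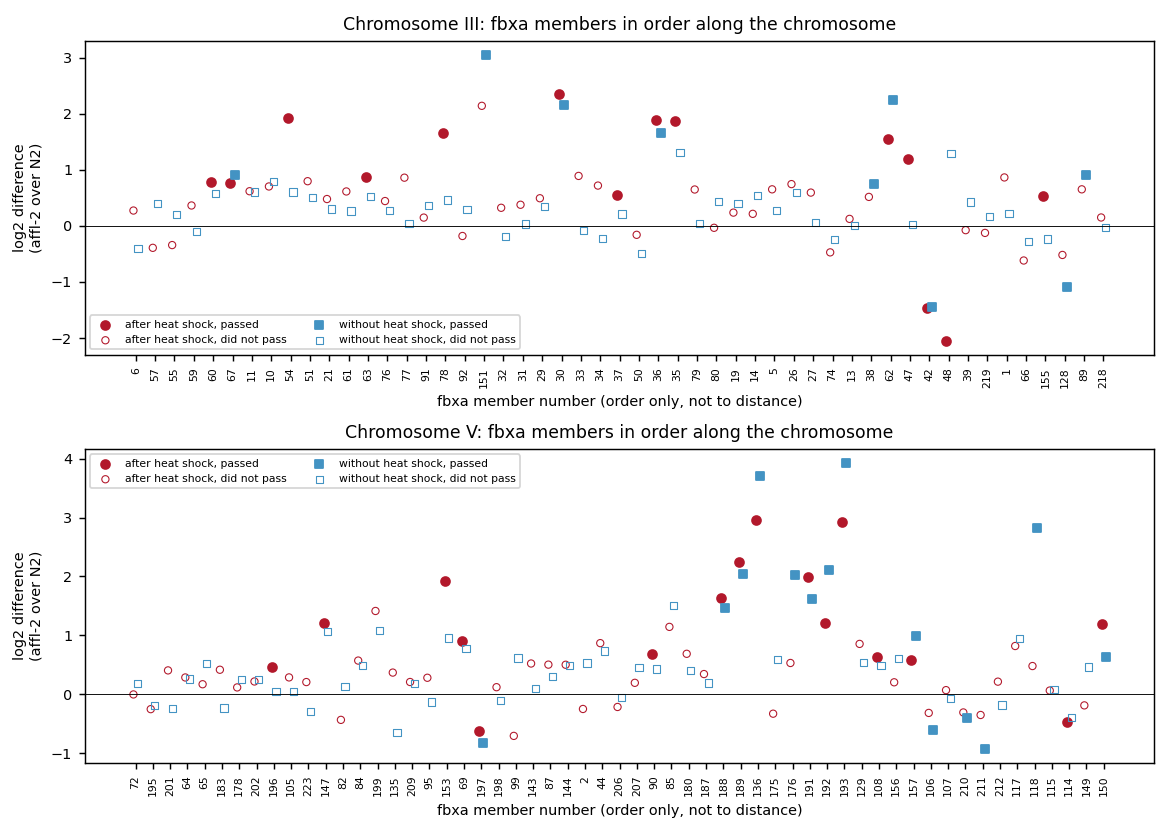
Members on chromosomes III (top) and V (bottom) are placed in chromosomal order, evenly spaced, with the log2 difference of affl-2 over N2 after heat shock (red circles) and without (blue squares), filled where the member passed. On chromosome V the filled points between fbxa-188 and fbxa-193 lie above 0 at both temperatures, and on chromosome III fbxa-42 and fbxa-48 are the lowest filled points.

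The heat and genotype differences were not confined to protein-coding members or to the rarest mRNAs. Of 33 tested pseudogene members, 2 rose and 7 fell with heat shock in affl-2 and 2 rose and 6 fell in N2, while 5 were higher in affl-2 after heat shock, 3 were higher without, and 0 were lower. With heat shock these are 6.06% rising and 21.2% falling in affl-2, against 23.4% and 10.9% of all 608 pseudogenes tested, and 6.06% and 18.2% in N2, against 16.6% and 14.8%. By genotype 15.2% of the pseudogene members were higher in affl-2 after heat shock and 9.09% without, against 12.8% and 4.61% of all pseudogenes, of which 6.91% and 5.59% were lower. Of the 112 tested coding members, 28 were higher and 5 lower in affl-2 after heat shock, and 19 were higher and 7 lower without. Of the 73 members above the median CPM of members, 17 were higher and 4 lower in affl-2 after heat shock (23.3% and 5.48%). Without heat shock 9 were higher and 6 lower (12.3% and 8.22%), with a median log2 difference of 0.08. Of the 72 tested members at or below the median CPM, 16 were higher and 1 lower after heat shock (22.2% and 1.39%). Without heat shock 13 were higher and 1 lower (18.1% and 1.39%), with a median of 0.47. All genes gave 10.1% and 9.57% after heat shock and 6.69% and 7.29% without. The median difference without heat shock was thus larger among the rarer members. Among the 108 tested members with whole counts, 23 were higher and 3 lower in affl-2 after heat shock and 15 higher and 6 lower without. In all, 86 members passed in at least 1 of the 4 comparisons of groups and 59 in none. The like count over all genes is not given here, and 14% to 21.5% of all genes passed in each comparison. The 86 are therefore not read as a trait of the family. fbxa-215 (30.8 TPM, 33.9 to 41.98 CPM in heated affl-2 and 31.8 to 42.1 CPM in heated N2) and fbxa-74 were among the abundant members that passed in none.

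Of 8 genes for cullins and RING subunits, all tested, only cul-6 passed in any comparison, which is 12.5% of the list for heat shock in affl-2 and for genotype without heat shock, against 21.4% and 14% of all genes. cul-6, the cullin of the ligase described above, was at 9 ± 1.53 CPM in heated affl-2 and 12.8 ± 1.5 CPM in unheated affl-2, against 6.62 ± 0.309 CPM in heated N2 and 7.87 ± 1.70 CPM in unheated N2 (SD, n = 3 each). Its difference between unheated affl-2 and unheated N2 was 0.70 ± 0.17 on the log2 scale (adjusted p = 0.0152, and 0.0627 at most without 1 library, where unheated affl-2 replicate 2 or unheated N2 replicate 2 was left out). Its fall with heat shock in affl-2, -0.51 ± 0.17, had adjusted p = 0.0483 and was lost when any 1 of 8 libraries was left out (up to 0.160) and with only the 6 compared libraries or with offsets for transcript length (up to 0.0564).

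Of 21 Skp1-related genes, which encode the adaptors that hold F-box proteins, 14 were tested. With heat shock 1 of the 14 rose and 0 fell in affl-2, and 0 rose and 1 fell in N2. Higher levels in affl-2 were called for 2 of them after heat shock and 2 without, and a lower level for 1 at each temperature, so that 21.4% passed at each temperature, against 19.7% of all genes after heat shock and 14% without. skr-5, an adaptor of the CUL-6 ligase, was at 0.667, 0.531 and 1.16 CPM in heated affl-2, against 0.168, 0.299 and 0.171 CPM in heated N2, with no overlap (log2 difference 1.86 ± 0.54), and without heat shock the difference was 1.80 ± 0.46. skr-5 reached 10 counts in affl-2 libraries alone, so its differences, which are among the higher calls above, are given with no test. skr-5 (F47H4.10) lies next to fbxa-189 on chromosome V. The other higher call after heat shock was skr-4, also an adaptor of the CUL-6 ligase (log2 difference 0.75, adjusted p = 0.0183). The skr-4 call was lost without heated affl-2 replicate 1 or 3 or heated N2 replicate 1 or 2 (adjusted p up to 0.0972). skr-21 rose with heat shock in affl-2 (1.46 ± 0.27, adjusted p = 0.00140) and skr-11 fell in N2 (-2.45 ± 0.56, adjusted p = 0.00613).

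Of all genes, 21.4% passed with heat shock in affl-2, 21.5% in N2, 19.7% by genotype after heat shock and 14% without. Of 12 genes for cullin neddylation and the signalosome, the machinery that switches SCF ligases on and off, 1 rose with heat shock in affl-2 (8.33%). In N2 1 of them rose and 1 fell (16.7%), and 0 differed by genotype. Of 9 single-copy F-box genes, dre-1 and mfb-1 fell with heat shock in both genotypes (22.2% of the list in each). dre-1, an F-box gene of developmental timing, fell by 1.21 ± 0.14 in affl-2 (adjusted p = 3.88e-05) and by 0.83 ± 0.14 in N2 (adjusted p = 0.000614) on the log2 scale. By genotype 2 of the 9 were lower in affl-2 after heat shock (22.2%) and 0 differed without. Of the intracellular pathogen response, a set induced by microsporidia and viruses that holds cul-6 and skr-5, 13 genes were tested. With heat shock 1 rose and 4 fell in affl-2 (38.5%), and 3 rose and 2 fell in N2 (38.5%). By genotype 2 were higher and 2 lower in affl-2 after heat shock (30.8%), and 3 were higher and 0 lower without (23.1%). The 6 inducible heat shock genes, among them hsp-70 and hsp-16.2, rose with heat shock in each genotype, and after heat shock all 6 were lower in affl-2 than in N2.

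Members of the related fbxb and fbxc families were measured in the same libraries. Of 113 fbxb symbols only 7 met the count rule. Of these 3 passed as higher with heat shock in affl-2 (42.9%) and 2 in N2 (28.6%), and 1 as lower in affl-2 after heat shock (14.3%). That gene, fbxb-117, was at 0.178, 0.193 and 0.194 CPM in heated affl-2, against 2.41, 2.09 and 2.27 CPM in heated N2 (log2 difference -3.54 ± 0.33). It met the rule through heated N2 libraries alone and had no count in any unheated library, so these values are a description, with no test. Of 56 fbxc symbols 29 met the rule and 28 were tested. With heat shock 6 rose (21.4%) and 4 fell (14.3%) in affl-2, and 6 rose (21.4%) and 3 fell (10.7%) in N2. All genes gave 10.6% and 10.8% in affl-2, and 9.52% and 12% in N2. After heat shock 5 fbxc genes were higher in affl-2 (17.9%) and 0 lower, against 10.1% and 9.57% of all genes. Without heat shock 3 were higher (10.7%) and 2 lower (7.14%), against 6.69% and 7.29%. The fbxc median log2 difference of affl-2 over N2 was 0.49 at each temperature, against 0.40 after heat shock and 0.28 without for fbxa members. The lean towards higher levels in affl-2 was thus not particular to fbxa. Some fbxc copies held identical values in the deposited tables as they do when reads are divided evenly among copies, so these fbxc counts and medians do not rest on independent genes. fbxc-20 rose with heat shock in affl-2 by 2.4 ± 0.21 (adjusted p = 2.99e-06) and in N2 by 1.14 ± 0.19 (adjusted p = 0.000656) on the log2 scale. Its unheated level was lower in affl-2, at 1.36, 1.89 and 1.77 CPM, than in N2 (-1.28 ± 0.22, adjusted p = 0.00153), while the heated levels were 7.32 to 10.3 CPM in affl-2 and 8.59 to 9.36 CPM in N2.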

How the data were processed

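Poly(A) RNA libraries of whole L4 animals were sequenced as single 50-nt reads, per the labels' protocols. Per the submitters' processing notes, base calls were converted with bcl2fastq 1.8.4 and transcripts of genome build WBcel235 were quantified with kallisto, for which the sources used here give no version. Each of the 12 deposited tables is 1 library and has, per the file headers, an estimated count, an effective length and TPM for each transcript. kallisto divides a read that matches several transcripts among them, so near-identical paralogs share counts. For each gene the estimated counts of its transcripts were added up and rounded to whole numbers, and TPM was summed likewise.

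Gene symbols, classes and WBcel235 positions came from the Ensembl annotation and, for pseudogenes, from RefSeq locus tags, and 220 of the 222 fbxa symbols matched 1 gene in a 1:1 way. Tests used edgeR 4.0.16 in R 4.3.3 (limma 3.58.1): TMM scaling, a filter on expression by group (filterByExpr, minimum count 10) that kept 15386 of 22010 genes, robust quasi-likelihood fits over all 12 libraries with 4 group means and 8 residual degrees of freedom, and Benjamini-Hochberg adjustment over all genes tested with a threshold of 0.05. The common biological coefficient of variation was 0.147. Comparisons were heat shock in affl-2, heat shock in N2, the same 2 genotypes against each other (affl-2 over N2) with and without heat shock, and the interaction. CPM values are TMM-scaled. SE is that of the log2 change. Exact 95% intervals of count ratios cover counting error only. The scripts were tested on simulated data.

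By the replicate numbers in the titles, 15 of 18 same-number pairs of libraries had a positive correlation of deviations from group means. The 3 negative ones (-0.341 to -0.0948) all involved unheated affl-2 replicate 2, and pairs without unheated affl-2 ranged over 0.116 to 0.347, so not every pair exceeded 0.1. With unheated affl-2 replicates 1 and 2 exchanged, as the index in their description labels has it, the correlations were 0.116 to 0.351 for the same number and -0.366 to 0.155 for different numbers. The exchanged numbers were used as pairs in an alternative fit only. The main tests had no replicate block, so their p-values and counts of calls leave this pairing out. With the exchanged block the members called were 61, 55, 47, 40 and 1, in place of 47, 44, 38, 29 and 0. DESeq2 1.42.0 and others were further alternatives. Alternatives that kept only members with whole counts, without overlapping genes or with 10 counts on both sides of a comparison (also leaving out fbxa-180 and fbxa-193) were added after seeing the data.

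Members, gene lists and the rule for named genes were chosen with earlier results of these data known. Named were fbxa-193, fbxa-180, the reported CUL-6 partners, the 10 members with the highest median TPM, members past the threshold (at most 12 in each direction per comparison), their described neighbours, and genes of the other lists that passed.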

Additional observations from a re-analysis of the deposited data

How the results depend on the processing

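Counts of members past the threshold were 47 for heat shock in affl-2, 44 for heat shock in N2, 38 for genotype after heat shock, 29 for genotype without heat shock and 0 for the interaction. A test against a 2-fold change left 5, 5, 5 and 3 members in the first 4 comparisons in that order. Scaling by library size alone gave 63 for genotype after heat shock, and a fit of only the 6 libraries compared gave 17 for genotype without heat shock. The replicate block in the exchanged pairing gave 61, 55, 47 and 40, and 1 for the interaction, and moved no other count by over 1.5 times. The block by title numbers gave 52, 49, 38, 33 and 0. DESeq2 gave 48, 47, 37 and 28, and 1 for the interaction. Leaving out each library in turn gave 34 to 50 for heat shock in affl-2, 35 to 49 for heat shock in N2, 20 to 41 for genotype after heat shock, 16 to 33 for genotype without heat shock and 0 to 1 for the interaction, with the 1 found without unheated affl-2 replicate 3. The other settings (size factors by RLE, no filter on low counts, offsets for transcript length, members with whole counts only, members overlapping no other gene, members with 10 counts on both sides) kept each of these counts within 1.5 times. One named result reversed: the heat shock change of fbxa-55 in affl-2, -0.67 (adjusted p = 0.0221), became 0.044 (adjusted p = 0.931) with offsets for transcript length, and the cause was not tested. Depth limits the rarest members, since 40 stayed below 1 TPM and a library with no count still allows up to 3 counts.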
